A study of Equus caballus with 25 samples.

Results

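VEGFA, EDN1 and HIF1AN, 3 genes of the hypoxia and vascular response, were each read by 1 probe, printed as 2 spots, on a custom one-color array of 7238 equine transcripts that was hybridized with RNA from bronchoalveolar lavage (BAL) fluid. HIF1AN was taken by its probe identifier, ENSECAT00000009355. VEGFA (ENSECAT00000009845) and EDN1 (ENSECAT00000012106) were taken by the symbols that the study's supplementary lists of changed transcripts pair with their identifiers. All 3 genes stand in the list for severe asthma against controls, which was made from the same horses, so that this contrast is not independent evidence of their direction. The 25 horses, with 1 array each, formed 3 groups. CTRL held 7 clinically healthy standardbreds, labelled Control. MEA held 10 horses with mild equine asthma, labelled IAD. SEA held 8 horses with severe equine asthma, labelled RAO. Affected horses were clinical cases sampled at presentation, mostly saddle horses with some standardbreds, and neither a genotype nor an experimental treatment was given for any group. Both sexes were in each group, SEA horses were older than those of the other groups, and the BAL fluid was taken in the same way from all. Age, breed and diagnosis therefore cannot be told apart where they differ between groups.

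Cells short of oxygen stabilize hypoxia-inducible factor (HIF), a transcription factor that switches on genes for glycolysis, vessel growth and vessel tone. HIF1AN, also called factor inhibiting HIF, is an oxygen-dependent asparaginyl hydroxylase that keeps HIF from recruiting the coactivators CREBBP and EP300. VEGFA, a secreted growth factor, acts on endothelial cells through the receptors FLT1 and KDR, and EDN1 is the precursor of endothelin-1, a peptide that constricts vascular and airway smooth muscle. Both genes are known targets of HIF and are also induced by inflammatory signals in macrophages, neutrophils and epithelial cells.

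The probes of VEGFA and of EDN1 are shown because each level below rests on this 1 sequence, and that of EDN2 (ENSECAT00000024760), a second endothelin gene, because its levels followed those of EDN1. They are written 5′ to 3′, and capitals mark a run of the greatest length that the EDN1 and EDN2 probes share, which other shared runs equal.
VEGFA: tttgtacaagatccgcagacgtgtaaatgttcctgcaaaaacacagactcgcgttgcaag
EDN1: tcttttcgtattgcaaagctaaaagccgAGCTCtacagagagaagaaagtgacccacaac
EDN2: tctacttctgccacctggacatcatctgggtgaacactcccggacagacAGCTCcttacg
That run is 5 bases of 60. No other probe on the array was identical to the VEGFA, EDN1 or HIF1AN probe, and none held a run of 20 bases of them on either strand. The share of G and C was 45% in the VEGFA and HIF1AN probes, 43.3% in the EDN1 probe and 55% in the EDN2 probe. Positions in the genome are not given here.

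The share of spots that the scanner software marked as well above background ran from 63.5% to 90.4% in CTRL, from 58.2% to 84.1% in MEA and from 66.6% to 90.8% in SEA. Levels are given as normalized log2 intensity, on which a difference of 1 is a 2-fold change, and a transcript was tested unless it was below 4.5 on at least 19 arrays. VEGFA was at or above 4.5 in 2 of 7 CTRL, 2 of 10 MEA and 7 of 8 SEA horses, and HIF1AN in 2, 2 and 6. Both therefore reached the test only through SEA, and that they were tested is no support for a difference. EDN1 was at or above 4.5 in 4 CTRL, 7 MEA and 8 SEA horses. BAL fluid holds macrophages, neutrophils, lymphocytes and shed airway epithelium, and in such a mixture fewer cells of a type and less RNA per cell cannot be told apart.

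**Figure D1:**
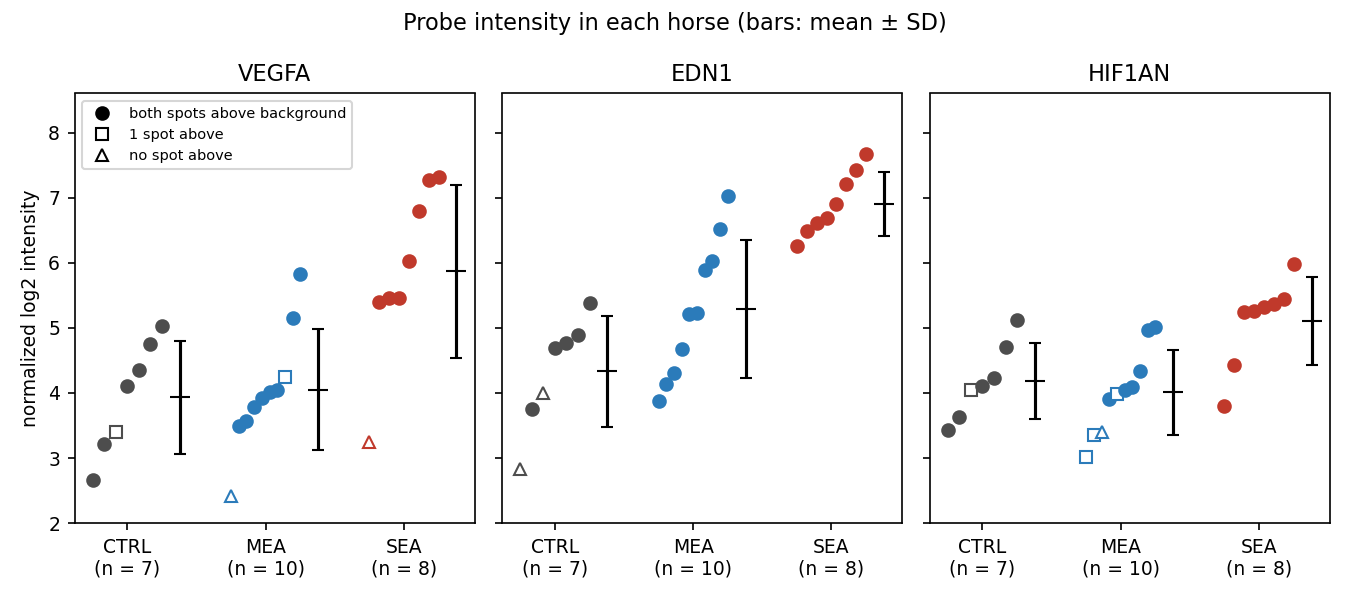
Normalized log2 intensity (y axis) of VEGFA, EDN1 and HIF1AN in each of the 25 horses by group (x axis), sorted within the group, where each point is a horse, the bars give mean ± SD, filled circles have both spots well above background, open squares 1 spot and open triangles none. The 8 SEA horses lie above all 7 CTRL horses for EDN1, whereas 1 SEA horse lies at 3.24 for VEGFA.

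VEGFA was overexpressed in SEA against CTRL, and its MEA and CTRL values overlapped. Its log2 intensity ran from 2.66 to 5.03 in CTRL with a median of 4.10, from 2.41 to 5.83 in MEA with a median of 3.97, and from 3.24 to 7.32 in SEA with a median of 5.75. In 7 of 8 SEA horses VEGFA was above the highest CTRL horse, and the exception, SEA replicate 1, was lower than 5 of the CTRL horses. Of the 10 MEA horses, 2 were above the highest CTRL horse and 1 below the lowest. Both spots were well above background in 6 of 7 CTRL, 8 of 10 MEA and 7 of 8 SEA horses, and neither spot was in SEA replicate 1 and MEA replicate 4, the lowest horses of their groups.

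EDN1 separated the groups most clearly of the 3 genes, in that its SEA and CTRL values did not overlap. CTRL ran from 2.84 to 5.38 with a median of 4.68, MEA from 3.88 to 7.03 with a median of 5.22, and SEA from 6.26 to 7.67 with a median of 6.79. The SEA horses were close together, with an SD of 0.49 against 0.86 in CTRL and 1.06 in MEA. The lowest MEA horses, replicates 7 to 10 at 3.88 to 4.67, all lay on slide 4, as did MEA replicate 3 at 6.52. That slide held 1 SEA horse, so the spread is mixed with the slide layout. MEA values overlapped those of both other groups, with 4 of 10 horses above the highest CTRL horse and 3 of 8 SEA horses above the highest MEA horse. All MEA and SEA horses had both spots well above background, as did 5 of 7 CTRL horses, and in CTRL replicates 2 and 4 neither spot was.

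Over all 25 horses HIF1AN had the narrowest range of the 3 genes. CTRL ran from 3.43 to 5.12 with a median of 4.10, MEA from 3.02 to 5.01 with a median of 4.01, and SEA from 3.80 to 5.98 with a median of 5.29. In SEA, 6 of 8 horses were above every CTRL and every MEA horse, and replicates 5 and 6 lay among them at 4.43 and 3.80. Their arrays had the highest shares of spots well above background in SEA, 86.0% and 90.8%. With that share as a covariate, the HIF1AN difference between SEA and CTRL was 0.85 (SE 0.19, limma adjusted p = 0.0100). SEA replicate 1, which had the lowest VEGFA of its group, had the highest HIF1AN. Both spots were well above background in 6 of 7 CTRL, 6 of 10 MEA and 8 of 8 SEA horses, so that the low MEA values are the least certain.

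Between SEA and CTRL all 3 genes were called, that is, limma gave an adjusted p (Benjamini-Hochberg) under 0.1 together with a change of 1.5-fold or more. In this contrast 32.5% of the 4930 transcripts tested were called, 15.9% higher and 16.6% lower in SEA, so that a call by itself set none of the 3 apart. The mean of EDN1 was 4.33 ± 0.86 (SD, n = 7) for the controls and 6.91 ± 0.49 (SD, n = 8) for SEA horses, a log2 difference of 2.58 (SE 0.34, adjusted p = 0.000907) or 5.96-fold with a 95% interval of 3.64 to 9.78. Only 3 transcripts had a smaller p, and values of SEA and CTRL did not overlap for 2.78% of those tested, or 1.52% with SEA higher. VEGFA rose likewise from 3.93 ± 0.87 to 5.87 ± 1.33, a log2 difference of 1.94 (SE 0.54, adjusted p = 0.0191) or 3.84-fold with an interval of 1.74 to 8.48. HIF1AN rose from 4.18 ± 0.59 to 5.10 ± 0.68, a log2 difference of 0.92 (SE 0.32, adjusted p = 0.0414) or 1.90-fold with an interval of 1.19 to 3.02.

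The arrays lay on 4 slides, each with horses of all groups. On the slides taken singly, EDN1 was higher in SEA than in CTRL by 3.03, 3.15, 1.98 and 1.83 on the log2 scale, and HIF1AN by 1.39, 0.67, 1.26 and 1.02. VEGFA was higher on slides 2, 3 and 4, by 2.66, 2.93 and 0.43, whereas on slide 1, where SEA replicate 1 was the lone SEA horse, the difference was -0.84. Slides 1 and 4 held 1 SEA horse each. With the slide as a block all 3 genes stayed called. Without SEA replicate 1, the VEGFA difference was 2.32 (limma adjusted p = 0.00295). When an offset of 50 was added after another background correction, which compresses probes as dim as these, VEGFA and EDN1 were still called at 0.64 and 1.01, and HIF1AN was not at 0.17 (adjusted p = 0.222). HIF1AN also fell short of the fold limit, at 0.57, when arrays were scaled to their 75th percentile.

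Between MEA and CTRL none of the 3 genes was called by limma, where 9.74% of the transcripts tested were, 3.23% higher and 6.51% lower in MEA, and the rank sum test called none either. EDN1 was the 1 gene with an unadjusted p below 0.05 in limma, as had 22.8% of the transcripts, 9.68% with MEA higher, and none of the 3 had one in the rank sum test. Its mean of 5.29 ± 1.06 (SD, n = 10) exceeded that of CTRL by 0.96 (SE 0.45, 95% interval 0.02 to 1.89, limma p = 0.0452, adjusted p = 0.207). By slide this difference was 1.67, 2.37 and 1.19 on slides 1, 2 and 3, and -0.67 on slide 4, which held 5 MEA horses and 1 CTRL horse. VEGFA differed by 0.12 (SE 0.41, adjusted p = 0.892), with an interval from -0.75 to 0.98, and HIF1AN by -0.17 (SE 0.30, adjusted p = 0.768), with an interval from -0.79 to 0.46. As folds of MEA over CTRL these intervals run from 0.595 to 1.97 for VEGFA and from 0.577 to 1.37 for HIF1AN. MEA and SEA were compared with the same 7 CTRL horses, so that the 2 contrasts are not independent of each other.

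Between SEA and MEA all 3 genes were called higher in SEA by limma and none by the rank sum test, where limma called 2.05% of the transcripts tested and 1.32% as higher in SEA. This contrast shares its SEA horses with the first. The log2 difference was 1.82 (SE 0.49, adjusted p = 0.0889) for VEGFA, 1.62 (SE 0.38, adjusted p = 0.0712) for EDN1 and 1.09 (SE 0.30, adjusted p = 0.0957) for HIF1AN, or 3.54-fold, 3.07-fold and 2.13-fold. Above the highest MEA horse stood 4 of 8 SEA horses for VEGFA, 3 for EDN1 and 6 for HIF1AN. All 3 adjusted p lie close to the limit of 0.1, and 13, 10 and 12 of the 18 horses, for VEGFA, EDN1 and HIF1AN, end the call when left out singly, with adjusted p up to 0.199, 0.167 and 0.199. With the slide as a block, adjusted p was 0.283, 0.269 and 0.269 for the 3 genes. The direction was the same on every slide for EDN1, by 0.78 to 2.51, and HIF1AN, by 0.57 to 1.77, and for VEGFA was turned on slide 1, at -0.84.

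**Figure D2:**
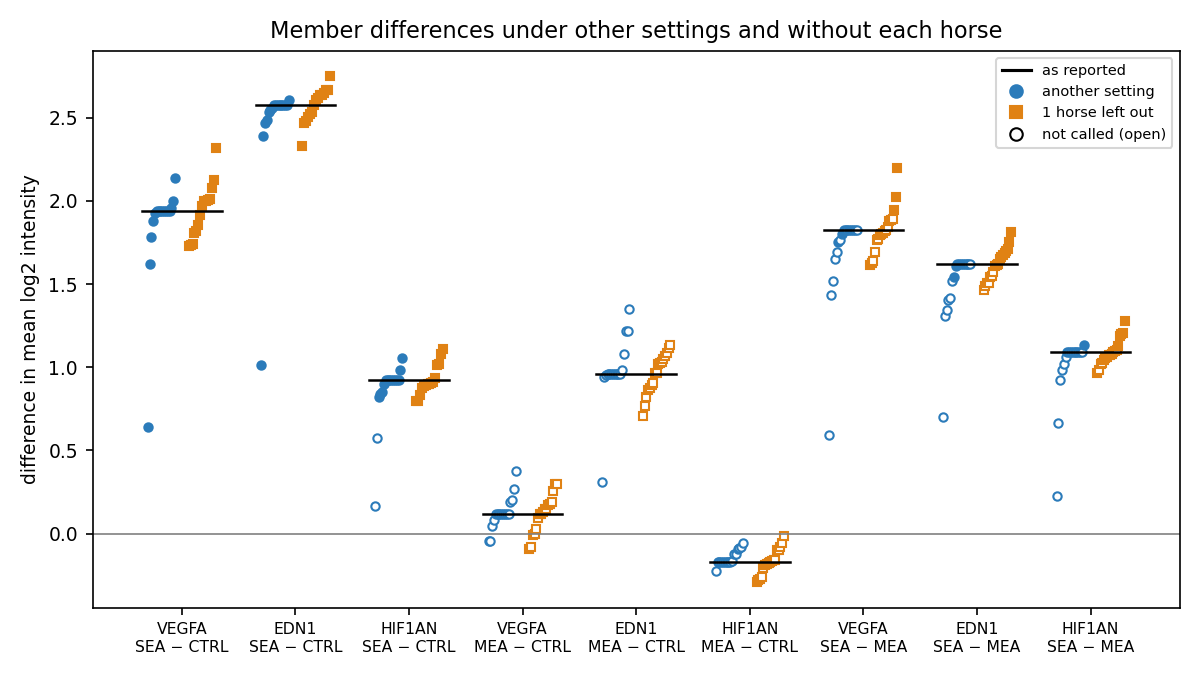
Differences in mean log2 intensity (y axis) of the 3 genes in the 3 comparisons (x axis), where black lines are the reported values, circles are other settings of the processing, squares leave out 1 horse each, and filled symbols were called. In SEA minus CTRL the VEGFA and EDN1 symbols are all filled, whereas in SEA minus MEA many are open.

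The rest of the pathway was followed in lists of HIF regulators, HIF targets, VEGF genes and endothelin genes, with symbols known only for transcripts in the study's lists. That selection shows in the background, since 86.1% of the 1684 tested transcripts with a symbol were called between SEA and CTRL. Beside the 3 genes, 25 transcripts of the lists were on the array and 22 were tested. Between SEA and CTRL, 16 of them were called higher, 2 lower and 4 were not called, with a median log2 difference of 1.28 against -0.01 over all transcripts tested and -0.38 over those with a symbol. The share called, 81.8%, was thus near that of transcripts with a symbol, while the share called higher was 72.7% against 42%. The lists were chosen with earlier results of these data known. They hold IL8, CXCR4 and TNF, which the paper names as HIF1 targets raised in SEA. The share called higher is therefore no independent evidence of a direction. Between MEA and CTRL, 3 were called higher and 2 lower, with a median of 0.50, or 22.7% called against 25.2% of the transcripts with a symbol, whose median was -0.09. Between SEA and MEA limma and the rank sum test called none. There 10 had an unadjusted p below 0.05 in limma, all higher in SEA, against 20.7% of all transcripts tested in either direction and 10.6% higher in SEA. Transcripts with a symbol are the closer background. They were called more often in this contrast, at 5.23% against 2.05% of all tested, and their unadjusted share was not computed.

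Of the 17 regulators of HIF listed, only 4 symbols, HIF1AN among them, were matched to a transcript. The paper states that the gene of the HIF1 alpha subunit could not be measured. The 4 tested transcripts other than HIF1AN were called higher in SEA, but all stand in the study's list for this contrast. Among tested transcripts with a symbol, 86.1% were called there and 42% were called higher. CUL2, the scaffold of the ubiquitin ligase that marks HIF for degradation, was higher by 1.40 (SE 0.46, adjusted p = 0.0361), and EP300, a coactivator of HIF, by 1.08 (SE 0.28, adjusted p = 0.0163). Both CREBBP transcripts, of the related coactivator, were higher by 0.72 and 0.74 (adjusted p = 0.0633 and 0.0655). None of these 4 transcripts was called between MEA and CTRL.

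FLT1, a receptor and decoy of VEGFA, was read by 3 probes that share no run longer than 7 bases, and all 3 were called higher in SEA. All 3 were read in the same horses and stand in the study's list for this contrast. Among tested transcripts with a symbol, 86.1% were called there and 42% called higher. ENSECAT00000023066 was at most 3.67 in CTRL, so it reached the test only through asthma horses, which is no support for a difference. Both of its spots were well above background in 1 of 7 CTRL, 6 of 10 MEA and 6 of 8 SEA horses. The differences were 2.45 (SE 0.46, adjusted p = 0.00503) for ENSECAT00000023490, 2.28 (SE 0.62, adjusted p = 0.0181) for ENSECAT00000023066 and 1.52 (SE 0.36, adjusted p = 0.0131) for ENSECAT00000028864. In MEA the first of these was called, at 1.38 (SE 0.45, adjusted p = 0.0819), while the others were at 1.25 and 0.67 (adjusted p = 0.18 and 0.254). NRP2, a coreceptor of VEGFA, PDGFC, a related growth factor, and DCN, a matrix proteoglycan that restrains VEGFA, did not pass the intensity filter and were not tested. DCN ran up to 9.47 in CTRL, against at most 4.26 in MEA and 4.52 in SEA. Its medians were all low, at 3.30, 2.68 and 2.98, and its SD in CTRL was 2.81. In EDN2, whose product acts on the same receptors as endothelin-1, CTRL ran from 5.85 to 7.07, MEA from 6.56 to 9.16 and SEA from 7.59 to 9.57. All SEA horses were above all CTRL horses, as for EDN1 and for 1.52% of all transcripts tested. The differences were 2.02 (SE 0.27, adjusted p = 0.0011) in SEA and 1.12 (SE 0.33, adjusted p = 0.0622) in MEA, both called. EDN2 also stands in the study's list for SEA. Of tested transcripts with a symbol, 25.2% were called between MEA and CTRL, 7.07% as higher.

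Other targets of HIF did not all move with VEGFA and EDN1. Those called higher in SEA included PLAUR, the receptor of urokinase, at 2.41 (adjusted p = 0.0129), the neutrophil chemokine IL8 at 2.30 (adjusted p = 0.00989), the sugar transporter SLC2A14 at 2.15 (adjusted p = 0.0154) and the chemokine receptor CXCR4 at 1.35 (adjusted p = 0.0471). TGFA, NDRG1 and PFKFB4, the last an enzyme that sets the rate of glycolysis, were higher by 1.39, 1.18 and 1.22, and PFKFB4 was also called in MEA at 0.82 (adjusted p = 0.0699). The mitophagy gene BNIP3 fell in SEA, at -0.78 (adjusted p = 0.0189), as did CP, the copper carrier ceruloplasmin, at -1.75 (adjusted p = 0.0764). CP was also called lower in MEA, at -1.44 (adjusted p = 0.0824). PDK1, TNF, HMOX1 and the glucose transporter SLC2A1 were not called in SEA, at 0.68, 0.50, -0.73 and -0.29, and SLC2A1 was called lower in MEA at -1.04 (adjusted p = 0.0624).

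**Figure D3:**
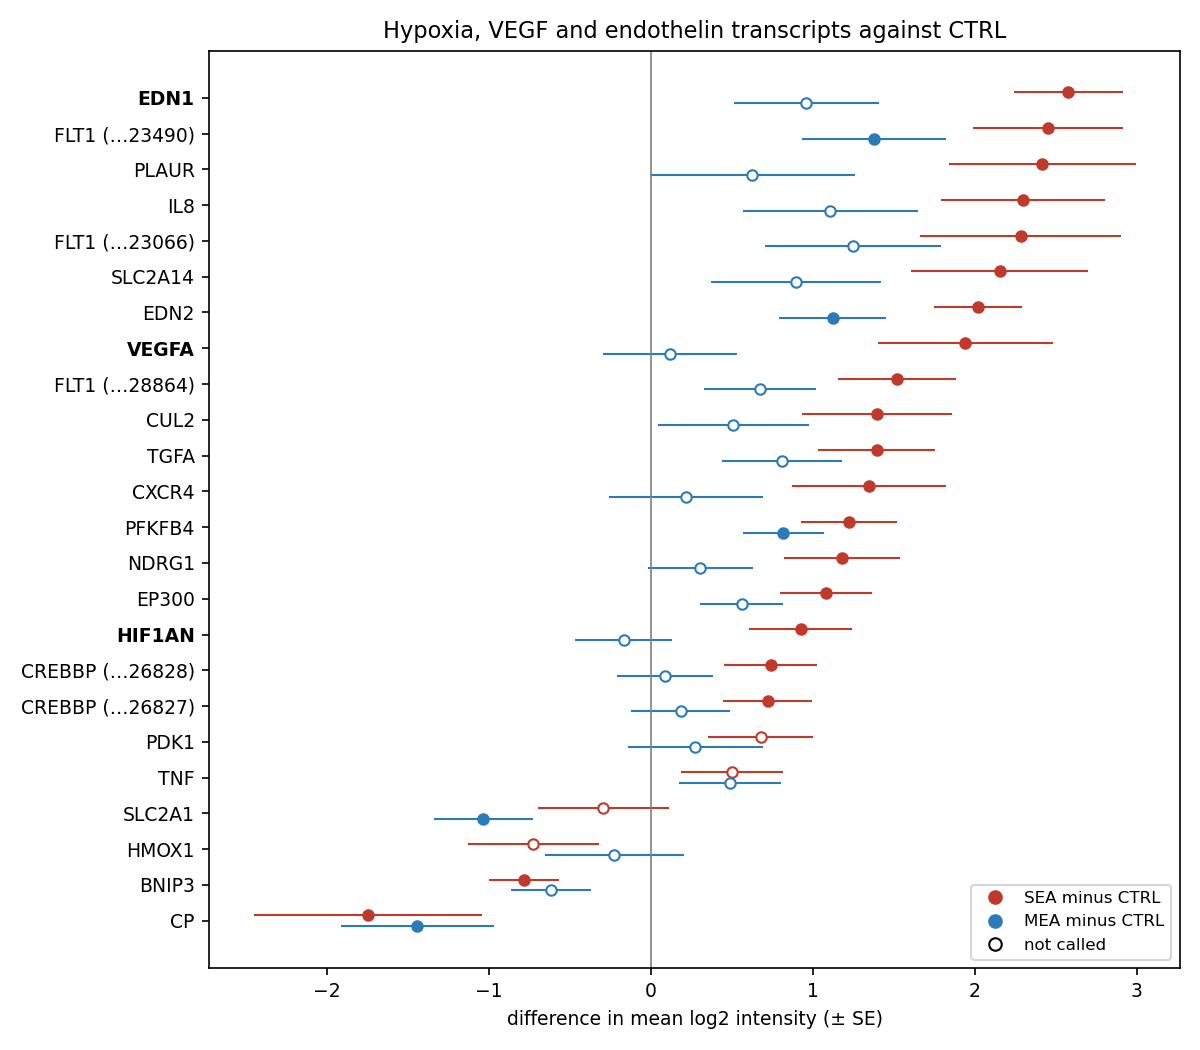
Difference in mean log2 intensity against CTRL (x axis, bars ± SE) for the 3 genes in bold and the 22 other tested transcripts of the lists except 1 (y axis), in red for SEA (8 against 7 horses) and in blue for MEA (10 against 7), filled where called. EDN1 has the largest SEA difference of these transcripts at 2.58, whereas the MEA differences of VEGFA and HIF1AN are 0.12 and -0.17.

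Between horses of the same group, no correlation among the 3 genes passed the test. Covariation was measured as Pearson's r and Spearman's rho within each group and over all 25 horses after subtraction of group means, with two-sided permutation p, exact in CTRL and SEA, adjusted over the 52 relations computed. Over 25 horses r was 0.27 for VEGFA and EDN1 (rho 0.25, p = 0.171, adjusted p = 0.374), -0.05 for VEGFA and HIF1AN (rho 0.11, p = 0.813, adjusted p = 0.899) and 0.17 for EDN1 and HIF1AN (rho 0.16, p = 0.423, adjusted p = 0.623). Without the 2 horses farthest from the median of the gene named first, r was 0.22, 0.09 and 0.29. Within groups the 9 values of r ran from -0.55 to 0.60, and none passed at an adjusted p of 0.05. On slides 2, 3 and 4, which held 6 or 7 arrays each, r was 0.13, -0.13 and 0.79 for VEGFA and EDN1, -0.14, 0.62 and 0.49 for VEGFA and HIF1AN, and -0.24, 0.19 and 0.73 for EDN1 and HIF1AN. The values depend on the scaling. With arrays scaled to their 75th percentile r was 0.43 (p = 0.0203) for VEGFA and EDN1 and 0.53 for EDN1 and HIF1AN (p = 0.0184), and that of VEGFA and HIF1AN turned to 0.28.

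EDN1 and EDN2 did vary together. Over 25 horses r was 0.84 (rho 0.78, both with p = 1e-05, the smallest that the resamples allow, adjusted p = 0.00052), and 0.79 without the 2 horses farthest from the EDN1 median. Within MEA r was 0.92 (rho 0.90, p = 5e-05, permutation test, adjusted p = 0.000867), and within SEA it was 0.89 (rho 0.81, exact p = 0.0028, adjusted p = 0.0364), although rho in SEA did not pass after adjustment (adjusted p = 0.226). Within the 7 CTRL horses r was 0.66 (exact p = 0.102, adjusted p = 0.33). On slides 2, 3 and 4 r of the group-centred values was 0.89, 0.77 and 0.98. MEA replicate 5 had the highest EDN1 and EDN2 of its group and MEA replicate 7 the lowest of both, and SEA replicates 2 and 7 took these places in SEA.

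No correlation of VEGFA with the probes of its receptor FLT1 passed the test. Over 25 horses r was -0.46, -0.29 and -0.26 for the 3 FLT1 transcripts, with unadjusted permutation p of 0.0394, 0.185 and 0.234 and adjusted p of 0.256, 0.384 and 0.451. The largest of these in size, for ENSECAT00000023066, was -0.27 without the 2 horses farthest from the VEGFA median. In MEA the horse with the lowest VEGFA, replicate 4, had the highest level of ENSECAT00000023066 and that with the highest VEGFA, replicate 3, the lowest, and r in MEA, -0.76 (permutation test, adjusted p = 0.115), was -0.04 without these horses.

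**Figure D4:**
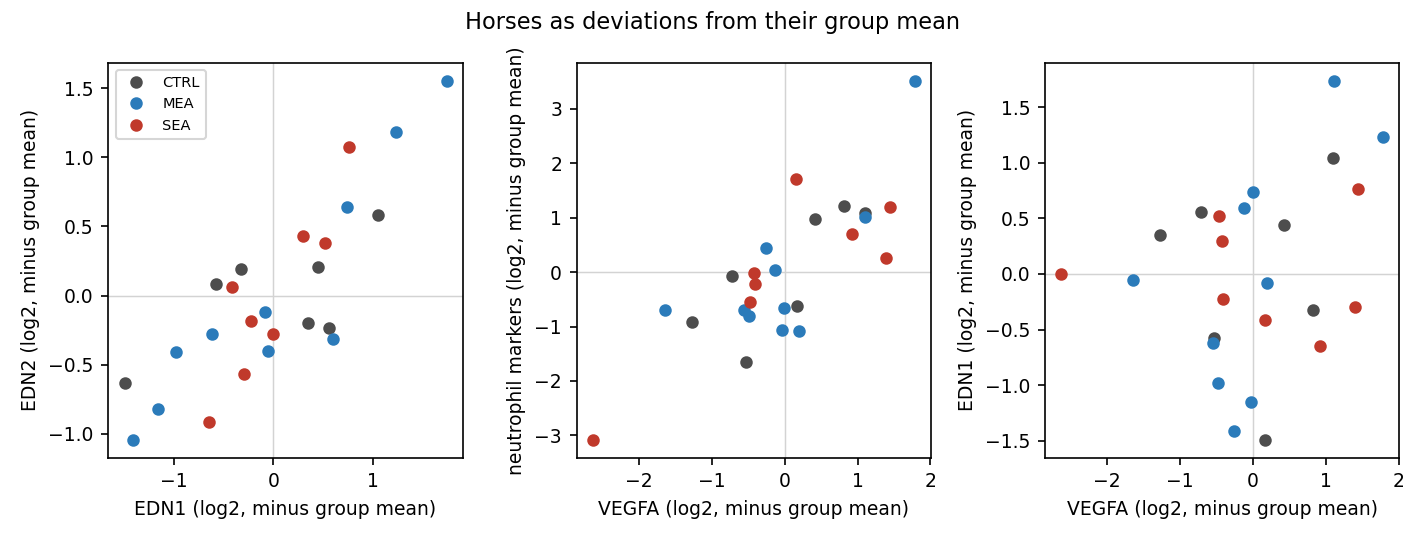
Each point is 1 of the 25 horses, as log2 deviation from the mean of its own group, for EDN1 against EDN2 (left), VEGFA against the mean of 7 neutrophil marker transcripts (middle) and VEGFA against EDN1 (right), colored by group. The points rise along a line on the left (r = 0.84) and in the middle (r = 0.80) and scatter on the right (r = 0.27).

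Levels of VEGFA moved with the mean of a neutrophil marker list. Of the 7 tested transcripts on the marker list, 6 (among them CSF3R, MMP9, AQP9 and both of TREM1) were called higher in SEA than in CTRL and 1, LTF, which airway glands also make, was called lower. Their summed intensity ran from 2309 to 18604 in CTRL, from 2968 to 206483 in MEA and from 2980 to 166182 in SEA. Over 25 horses VEGFA correlated with the mean of the 7 transcripts at r = 0.80 (rho 0.72, p = 2e-05, permutation test, adjusted p = 0.00052), and at 0.65 without the 2 horses farthest from the VEGFA median. Within CTRL, MEA and SEA r was 0.79, 0.76 and 0.85 (adjusted p = 0.264, 0.115 and 0.115, permutation tests), with rho at 0.36 in MEA, and r in SEA was 0.40 without replicates 1 and 2. On slides 2, 3 and 4 r was 0.82, 0.51 and 0.89. SEA replicate 1 had the lowest VEGFA and the lowest neutrophil marker mean of SEA, and MEA replicate 3 the highest of both in MEA. EDN1 was at r = 0.38 (rho 0.35, p = 0.0683, adjusted p = 0.288) and HIF1AN at -0.13 (rho 0.06, p = 0.561, adjusted p = 0.741). These markers are RNA levels and not cell counts. Matched by sample name, the study's smear counts gave mostly neutrophils for SEA replicate 1 and mostly macrophages for MEA replicate 3. Their marker means were 7.67 and 12.89, so the mean did not follow the counted neutrophils in these horses. The part of neutrophil content in the VEGFA difference was not tested.

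Markers of the other cells of the lavage were also called. Their symbols, like those of the neutrophil markers, come from the study's lists of changed transcripts, so that the counts stand beside a share called of 86.1% in SEA and 25.2% in MEA among all tested transcripts with a symbol. All 8 epithelial transcripts had lower means in SEA and in MEA than in CTRL, of which 7 were called in SEA and 3 in MEA, their sum running from 7965 to 39997 in CTRL, from 2268 to 25151 in MEA and from 715 to 8857 in SEA, and all 9 transcripts of ciliated cells were called lower in both, with sums of 4829 to 18490, 623 to 11488 and 232 to 6754. No correlation of the 3 genes with the epithelial mean passed the test over 25 horses, at r = 0.34, -0.34 and -0.34 for VEGFA, EDN1 and HIF1AN (adjusted p = 0.374, 0.288 and 0.373). Of the macrophage markers, CD68 was called higher in SEA, by 0.84, and both SIGLEC1 transcripts in MEA, by 0.83 and 1.14. MARCO was called in neither, at -1.12 in SEA (adjusted p = 0.163) and 0.20 in MEA (adjusted p = 0.771). Between SEA and MEA none of the 4 was called, with 3 lower in SEA, 1 higher and a median of -0.57. Macrophage markers summed to 18431 to 55491 in CTRL, 27201 to 87139 in MEA and 37301 to 75618 in SEA, which overlap. These sums rest mostly on CD68 and MARCO, the brightest. The study's smears held mostly macrophages in CTRL and mostly neutrophils in SEA. Of the endothelial markers, ENG and ROBO4 were called higher in SEA, by 0.90 and 0.71, VWF was not called at -1.10 (adjusted p = 0.255), and ESAM, which did not pass the filter, had both spots above background in 0 of 8 SEA horses. The 3 tested endothelial transcripts summed to 156 to 596 in CTRL, 197 to 963 in MEA and 220 to 406 in SEA. ENG is also made by macrophages, and the part of cell content in the EDN1 and HIF1AN differences was not tested.

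The transcripts most like each gene were taken as the 5 with a symbol that had the highest Pearson's r over 25 horses after subtraction of group means, given as a description. For VEGFA they were GADD45B, a stress-induced growth regulator (r = 0.85), ELL2, an elongation factor (0.85), the matrix proteoglycan VCAN (0.84), TBC1D9 (0.84) and PTX3, a secreted pattern-recognition protein (0.84). GADD45B, ELL2, TBC1D9 and PTX3 were also called higher in SEA than in CTRL, by 2.08, 1.93, 3.06 and 2.59, while VCAN, at 1.94, was not (adjusted p = 0.115). These calls stand beside 86.1% called in this contrast, 42% higher, among all tested transcripts with a symbol. For EDN1 they were EDN2 (0.84), 2 transcripts of the autophagy gene TECPR2 (0.80 and 0.78), the ETS-family regulator ELK3 (0.75) and MYBPC3 (0.73). For HIF1AN they were TAF5, a subunit of the general transcription factor TFIID (0.85), PATL1, which acts in mRNA decay (0.84), CKAP2L (0.75), ARSG (0.75) and SNX20 (0.73). None of these transcripts was named for more than 1 of the 3 genes. The values within a horse come from the same array and share its signal and normalization, and transcripts without a symbol were not named.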

How the data were processed

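RNA of BAL fluid from 25 horses (7 CTRL, 10 MEA and 8 SEA) was hybridized to one-color arrays, 1 per horse. Per array, the authors deposited spot intensity values from Agilent Feature Extraction, background-subtracted and detrended within the array, with flags for spots well above background, and in addition a table of intensities normalized across arrays by cyclic loess (R 2.11.1 per the labels), used here as an alternative. Deposited intensities were taken to log2, normalized by cyclic loess (span 0.7, 3 iterations), and the 2 spots of a probe averaged. Transcripts below 4.5 on at least 19 arrays were left out, which left 4930. Each pair of groups was fitted with limma 3.58.1 in R 4.3.3 (lmFit, eBayes, two-sided, Benjamini-Hochberg over all transcripts tested) and called where adjusted p was under 0.1 and the change 1.5-fold or more. The study's methods used SAM, for which limma and, as an alternative, an exact rank sum test stood in. Adjusted p of single transcripts came from limma unless another test is named. The limma fit was tested on simulated data, and the other steps were not.

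Correlations used Python 3.11.15 (numpy 2.4.6), with exact permutations in groups under 10 horses and otherwise 100000 resamples, within groups for centred values. No 2 arrays were identical, no member spot was saturated or marked as an outlier, and 1 HIF1AN spot in MEA held a replaced low value. Arrays have no read depth, and the number of horses limits precision. Each horse is a separate animal, and the replicate number only names it. Alternatives covered scaling, background correction, filters, tests, blocks and leaving out each horse; leaving out outlier spots and subtracting slide means were chosen after seeing the data. Genes named are the 3 members, transcripts of the pathway and marker lists that have a symbol, and the 5 nearest to each member. Members and lists were chosen with earlier results of these data known. Symbols came from the study's supplementary lists, which name 1865 of 7238 transcripts. Lists of lymphocyte markers (0 transcripts) and of fibroblast and muscle markers (1, DCN, not tested) gave no count. In the remaining lists 2 transcripts enter the counts but are not reported here by name. The reference table available held no matching identifiers, and positions are not analysed here.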

Additional observations from a re-analysis of the deposited data

Results flagged for a closer look

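One VEGFA value stood apart from its group. SEA replicate 1 was at a log2 intensity of 3.24, farther below the other 7 SEA horses, which lay between 5.40 and 7.32, than a test for single outliers in a group of 8 allows at the 95% level. The gap was 0.530 of the range of the group, which only narrowly passed that level. Chance flags about 1 in 20 of such groups, and 9 combinations of gene and group were tested, so that 1 passing is not unusual. Neither of its VEGFA spots was well above background, while its EDN1, at 6.90, was within the range of the group and its HIF1AN, at 5.98, was the highest. The neutrophil marker mean of this horse, 7.67, was the lowest of SEA, as was its epithelial marker mean, 4.72. The study's smear counts gave mostly neutrophils for this horse, so its neutrophil marker mean did not follow the counted cells.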

How the results depend on the processing

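Between SEA and CTRL, VEGFA and EDN1 kept direction and call under all 16 other settings, at 0.64 to 2.14 and 1.01 to 2.61, and without each horse, at 1.73 to 2.32 and 2.33 to 2.75. HIF1AN was called without each horse (0.80 to 1.11) and in 14 settings, and lost its call at the 75th percentile (0.57) and with normexp background correction (0.17). Between MEA and CTRL, no setting and no horse left out called any of the 3 genes. EDN1 was at 0.71 to 1.13 and HIF1AN at -0.29 to -0.01 without each horse. VEGFA was at -0.10 to 0.30, below 0 without CTRL replicates 5 or 6 or MEA replicates 3 or 5, and was reversed with the slide or the scan date as a block (-0.046 in both). The cause was not tested.

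Between SEA and MEA the calls depended on the setting, at 1.62 to 2.20 (VEGFA), 1.46 to 1.81 (EDN1) and 0.97 to 1.28 (HIF1AN) without each horse, always higher in SEA. The 3 genes, in this order, were not called at the 75th percentile (1.43, 1.40, 0.67), by quantile normalization (1.76, 1.52, 0.93), with normexp (0.59, 0.70, 0.22), with the slide (1.52, 1.31, 1.09) or scan date (1.65, 1.34, 1.06) as a block, or, at 1.82, 1.62 and 1.09, by the rank sum test and at an adjusted p below 0.05. HIF1AN was also lost with the authors' values (0.98) and, at 1.09, without an intensity filter (VEGFA too, at 1.82), with the filter on spots above background, with the limit on the linear scale and with trend and robust settings. VEGFA, EDN1 and HIF1AN lost the call without SEA replicates 2, 3, 4, 5 or 8 or MEA replicates 2, 7, 8, 9 or 10, VEGFA and HIF1AN also without SEA replicate 7 or MEA replicate 6, and VEGFA without MEA replicate 4.

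Transcripts called between SEA and CTRL numbered 1601 (1230 to 1693 without each horse) and 874 with normexp. Between MEA and CTRL there were 480 (157 without CTRL replicate 1 to 740 without MEA replicate 7, and moved over 1.5-fold also without CTRL replicates 4 or 6 or MEA replicates 2, 5, 9 or 10), 156 with normexp, 171 with the slide and 216 with the scan date as a block, and 208 at an adjusted p below 0.05. Between SEA and MEA there were 101 (2 without SEA replicate 2 to 554 without MEA replicate 3, and moved over 1.5-fold without any 1 horse), 0 at the 75th percentile or with the slide as a block, 40 by quantile normalization, 8 with normexp, 25 by rank sum test, 2 with the scan date as a block or at an adjusted p below 0.05, 265 with all 25 arrays in 1 fit and 166 with the share of spots above background as a covariate.

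Correlations of VEGFA and EDN1 (0.17 to 0.33 without each horse) were 0.43 at the 75th percentile and 0.41 by quantile normalization, past p of 0.05 in both. That of EDN1 and HIF1AN (0.05 to 0.28) was 0.53 at the 75th percentile. That of VEGFA and HIF1AN (-0.12 to 0.16) was reversed at the 75th percentile (0.28), with slide means subtracted (0.12) and without SEA replicate 1 or MEA replicate 4.

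Replicate numbers mark different horses. With the replicate number as a block, VEGFA, EDN1 and HIF1AN were at 2.0, 2.53 and 0.90 in SEA against CTRL, all called, and at 1.69, 1.42 and 1.02 in SEA against MEA, none called, where 0 transcripts were called in all, and 136 between MEA and CTRL. Same-numbered horses correlated from -0.17 to 0.31 (SEA and CTRL), -0.44 to 0.36 (MEA and CTRL) and -0.36 to 0.41 (SEA and MEA). Low signal limits all 3 genes: of the 17 CTRL and MEA horses, 3 for VEGFA, 2 for EDN1 and 5 for HIF1AN had fewer than 2 spots well above background.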
